A study of Homo sapiens with 12 samples.

Results

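H/ACA small nucleolar RNAs (symbols beginning SNORA) and small Cajal body RNAs (symbols beginning SCARNA) were followed across 2 hairpin lines and 3 treatments of HEK293T cells, an established human embryonic kidney line. Members were the genes of the deposited count table with either symbol start and a mean of at least 0.5 CPM (counts scaled to the library total) over the 12 libraries. That gave 113 members, 89 SNORA and 24 SCARNA, of 23615 genes in the table. A further 16 such genes lay below the minimum, 5 of them at 0 in every library. The member nearest the minimum was SCARNA11, with a mean of 0.589 CPM, and the nearest gene left out was SNORA77, with 0.479 CPM. All 113 members passed the filter on low counts and were tested.

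Every culture carried a puromycin-selected lentiviral hairpin, either one against ELAVL1, which encodes the RNA-binding protein HuR (shHuR), or a control hairpin (shControl). Each line was left untreated, given HNE alkyne, a tagged form of the lipid aldehyde 4-hydroxynonenal (HNE, 25 µM), or given hydrogen peroxide (H2O2, 225 µM), the treatments lasting 18 h. The 6 groups held 2 libraries each, described by the submitters as biological replicates. The labels name 1 hairpin sequence per line, so effects of that line's hairpin and selection cannot be told apart from effects of lower HuR. All libraries came from total RNA after removal of ribosomal RNA by hybridization.

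H/ACA RNAs fold into a pair of hairpins joined by a hinge, the H box, and end in a short tail that carries an ACA box. In the nucleolus, bound to dyskerin (DKC1), NHP2, NOP10 and GAR1, they guide the conversion of uridine to pseudouridine in ribosomal RNA. Small Cajal body RNAs guide pseudouridylation, 2′-O-methylation or both in spliceosomal RNAs and are kept in Cajal bodies by the protein WRAP53. Most human RNAs of both kinds are cut from the introns of host genes and rely on the transcription of the host.

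A sequence was found for 106 members among the transcripts of GENCODE 29, whose coordinates are on GRCh38, whereas the submitters' processing notes name GRCh37. The sequences below are those of the most abundant SNORA (SNORA63), the related pair with the 2 largest line differences over all treatments (SNORA36A and SNORA36B), 2 lower in shHuR whichever library was left out (SNORA69 and SNORA33) and the Cajal body RNA that stood highest in 1 library (SCARNA15). Capitals mark the match to the H box (ANANNA) nearest the centre of the RNA and, where present, ACA at 3 bases from the 3′ end, both searched on the strand of the RNA alone.
SNORA63: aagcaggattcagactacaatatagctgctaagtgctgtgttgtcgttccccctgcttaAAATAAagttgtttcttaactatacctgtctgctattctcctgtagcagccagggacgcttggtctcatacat
SNORA36A: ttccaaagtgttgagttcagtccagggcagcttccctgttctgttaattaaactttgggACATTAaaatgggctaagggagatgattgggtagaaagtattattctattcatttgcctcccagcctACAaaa
SNORA36B: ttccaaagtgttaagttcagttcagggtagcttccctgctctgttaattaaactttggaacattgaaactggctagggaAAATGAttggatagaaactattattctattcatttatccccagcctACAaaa
SNORA69: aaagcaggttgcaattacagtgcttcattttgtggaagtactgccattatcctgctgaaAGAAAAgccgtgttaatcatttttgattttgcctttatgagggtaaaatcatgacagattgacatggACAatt
SNORA33: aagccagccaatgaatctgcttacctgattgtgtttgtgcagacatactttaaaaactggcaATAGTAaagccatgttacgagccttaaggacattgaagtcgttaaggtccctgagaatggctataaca
SCARNA15: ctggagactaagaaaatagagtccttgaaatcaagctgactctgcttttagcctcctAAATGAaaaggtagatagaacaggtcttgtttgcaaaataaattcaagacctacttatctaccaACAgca

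SNORA63 lies on the plus strand at chr3:186787300-186787431, within EIF4A2. SNORA36A lies on the plus strand at chrX:154768528-154768659, within DKC1, so the gene for the pseudouridine synthase itself holds a guide RNA. SNORA36B lies on the minus strand at chr1:220200546-220200676, within RAB3GAP2. SNORA69 lies on the minus strand at chrX:119787353-119787484, within RPL39, and SNORA33 on the plus strand at chr6:132817219-132817348, in an intron of RPS12. SCARNA15 lies on the plus strand at chr15:82755945-82756071.

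The ACA box stood 3 bases from the annotated 3′ end in 74 of 106 members (69.8%), against 4 of 288 SNORD transcripts of the reference (1.39%), which are box C/D RNAs. A match to the H box was centred within 10 bases of the middle of the RNA in 83.0% of members and in 30.2% of SNORD transcripts. Among the classes, ACA was at that place in 64 of 86 SNORA and 9 of 12 H/ACA-type SCARNA, in 0 of 4 mixed SCARNA and in 0 of 3 box C/D SCARNA. Members were 121 to 420 bases long, with a median of 134. Some were close copies of one another, so their reads may have been divided between them: SNORA7A and SNORA7B were identical at 98.6% of aligned positions, and SNORA36A and SNORA36B at 87.9%. By annotation 64 of the 107 members with a host lay wholly in introns, and 43 overlapped an exon of some annotated transcript of the host, so counts of the latter may include reads of the host's own RNA.

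Levels spread widely among the members. SCARNA2, a box C/D RNA that guides methylation of U2, averaged 913 CPM and took 15.5% of all member CPM. The 8 most abundant members, which after SCARNA2 were SNORA63, SCARNA12, SNORA43, SCARNA10, SNORA71A, SNORA53 and SNORA64, took 40.8%. Per length, SNORA63 (2607 CPM per kilobase) stood above SCARNA2 (2173), SNORA71A (1380) and SNORA64 (1258). At the other end 43 members averaged under 10 CPM. The deposited FPKM values were not used to compare members: for RNAs of about this length they imply an effective length of only a few bases, 6.56 for SNORA63 with its 132 bases.

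Total counts ran from 24855946 to 29907258 per library. ELAVL1, the hairpin target, averaged 93.1 ± 4.91 CPM in shControl and 71.3 ± 2.01 in shHuR (SD, n = 6), a log2 fold change of -0.38 (edgeR, Benjamini-Hochberg adjusted p = 2.60e-06), with no overlap between lines. Of the markers of the cell line, KRT18 was at 30.3 to 40.4 CPM over the libraries, and PAX2 averaged 0.346 CPM. The other 3 moved with the line by edgeR: NEFM was at 3.40 to 6.18 CPM in shControl and 7.33 to 11.8 in shHuR (log2 fold change 1.10, adjusted p = 2.03e-06), VIM at 491 ± 26.1 and 381 ± 27.6 CPM (-0.37, adjusted p = 2.16e-05) and KRT8 at 9.93 ± 1.02 and 7.61 ± 0.605 CPM (-0.38, adjusted p = 0.00174; SD, n = 6). Their part in the differences between the lines was not tested. PTPRC, ALB and PECAM1, which mark blood, liver and endothelium, did not exceed 0.219 CPM in any library, and COL1A1 averaged 3.56 CPM.

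Before any comparison, 2 shControl libraries stood apart. Scaled by trimmed mean of M values (TMM), the members summed to 5496 and 7874 CPM in untreated shControl, to 5833 and 8419 with HNE and to 5882 and 5005 with H2O2. In shHuR they summed to 6531 and 4992 CPM untreated, to 5382 and 5481 with HNE and to 4409 and 5622 with H2O2. The second replicates of untreated and HNE-treated shControl were therefore the highest of all, and the lines overlapped. Members took from 0.451% to 0.812% of the counts of a library.

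**Figure D1:**
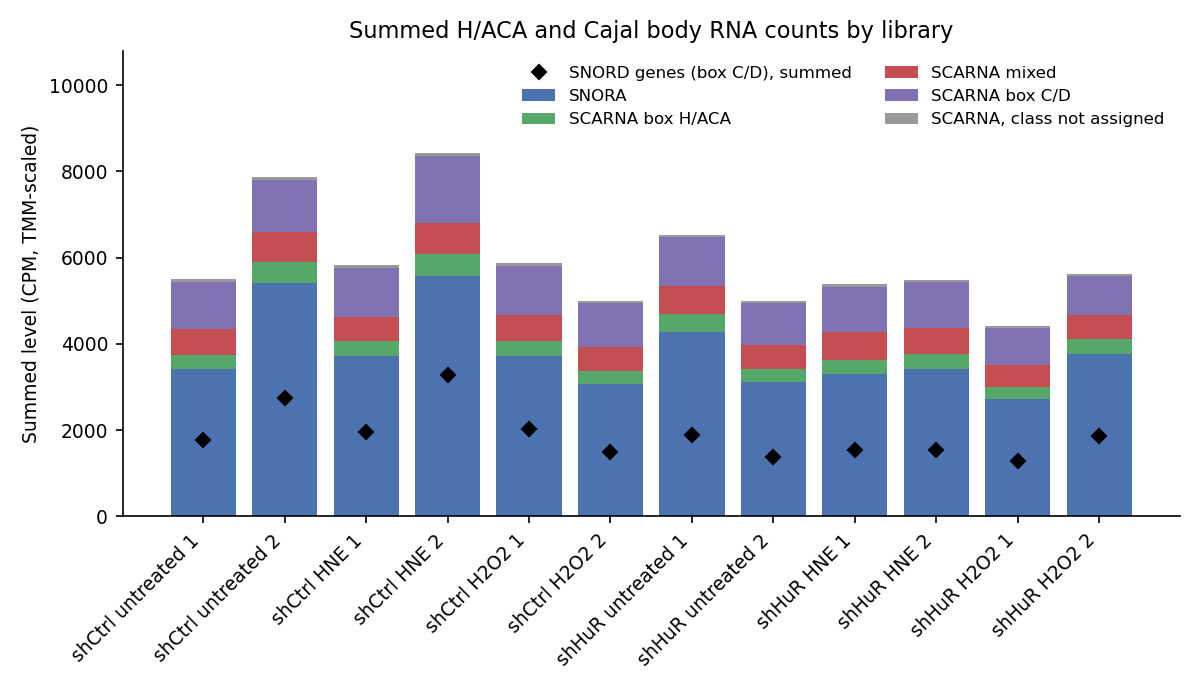
Bars give the summed TMM-scaled CPM of the 113 members in each of the 12 libraries, divided by class, and diamonds the sum of 50 SNORD genes. The second shControl replicates, untreated (7874 CPM) and with HNE (8419 CPM), stand above the other 10 libraries, and the diamonds are highest in the same 2.

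The pattern was shared by almost every member. Of 113, 71 were highest in the second HNE-treated shControl library, 40 in the second untreated shControl library and 2 (SNORA23 and SCARNA13) in the first untreated shHuR library. The lowest library was the first H2O2-treated shHuR library for 72. Members were higher in the second replicate in 112 of 113 cases in untreated shControl and in 105 with HNE. In the untreated shHuR group the order was the other way, with 2 of 113 higher in the second replicate.

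Related small RNAs moved with the same libraries. From the first to the second replicate the summed members changed by a ratio of 1.43 in untreated shControl and 1.44 with HNE. The 50 SNORD genes changed by ratios of 1.55 and 1.66, and the spliceosomal RNA genes by 1.81 and 1.74. In H2O2-treated shControl the 3 ratios were 0.851, 0.736 and 0.623. The spliceosomal sums came almost wholly from RNU11, RNU12, RNU4ATAC and RNU6ATAC, the 4 tested of 27 listed genes. Listed RNU5 and RNU6 genes did not exceed 0.0379 CPM in any library. Of 2 longer abundant RNAs, RMRP was at 18602 CPM in the second untreated and 16597 in the second HNE-treated shControl library, against 15590 to 17767 in the other 4 of that line. RPPH1 was at 17089 and 17549 CPM in those 2 libraries, above the other 4 of the line, which lay between 14267 and 16109. The part that recovery of short RNAs played in the line differences below was not tested. In bulk RNA, fewer cells with a transcript and less of it per cell cannot be told apart.

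Against the mean of the other 11 libraries, the second HNE-treated shControl library stood at a median ratio of 1.67 over the members, from 0.495 to 5.27. The ratio was highest for SCARNA15 (5.27), a guide for U2, followed by SNORA39 (5.18), SNORA69 (4.77), SNORA36A (4.33) and SNORA32 (4.21). It varied with level and length: the median was 2.28 for the 27 members under 5 CPM and 1.41 for the 34 members at 50 CPM or more. It was 1.74 for the 97 members shorter than 200 bases and 1.38 for the 9 of at least 200 bases. The longer ones were also more abundant, with a median of 139 CPM against 16.0, so length and level cannot be told apart here. In 6 members the ratio was below 1, with SCARNA18 (0.495) lowest.

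Over all treatments, 29 of 113 members were lower in shHuR than in shControl and none was higher (edgeR's quasi-likelihood test, Benjamini-Hochberg adjusted p under 0.05). That is 25.7% of the members, against 29.9% of all 16005 genes tested, of which 15.9% were lower and 14.1% higher. The share of members called in either direction was thus below that of all genes. The share called lower, 25.7%, was above the 15.9% of all genes. Of the 113 estimates 110 were below 0, with a median log2 fold change of -0.32, against -0.00 for all genes. The SNORA gave 26 calls of 89 (median -0.34) and the SCARNA 3 of 24 (median -0.19). The 50 SNORD genes had a median of -1.20, with 42 lower, and 3 of 4 tested spliceosomal RNA genes were lower. No member separated the 6 libraries of one line from the 6 of the other. The share of all genes that did so was not measured, so whether this was particular to the members cannot be told.

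**Figure D2:**
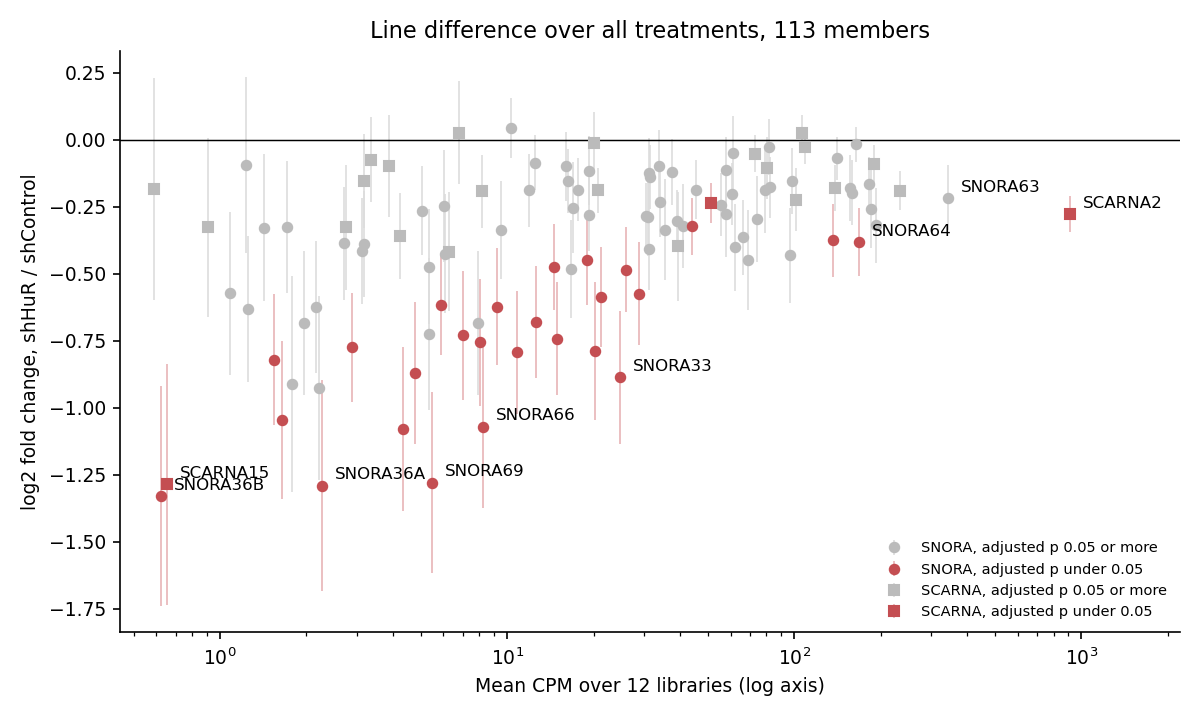
Each point is 1 member, placed by its mean CPM over 12 libraries (log axis) and its log2 fold change between shHuR and shControl over all treatments, with its SE as a bar and red for an adjusted p under 0.05. Nearly all points lie below 0, and the largest differences, such as SNORA36B at -1.33, belong to members at low levels.

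The lowest estimates belonged to scarce members. SNORA36B was lower by a log2 fold change of -1.33 (SE 0.41, adjusted p = 0.0208 by edgeR), SNORA36A by -1.29 (SE 0.39, adjusted p = 0.0199) and SCARNA15 by -1.29 (SE 0.45, adjusted p = 0.0384). The median was -0.57 for the 27 members under 5 CPM, with 8 calls, -0.33 for the 52 members from 5 to 50 CPM, with 17 calls, and -0.19 for the 34 members at 50 CPM or more, with 4 calls. Without the second HNE-treated shControl library SCARNA15 moved to -0.77 (adjusted p = 0.145) and SNORA36B to -1.08 (adjusted p = 0.0576), both by edgeR. With each of the 12 libraries left out in turn, SCARNA15 was called in 5 fits, SNORA36B in 6 and SNORA36A in 9. SNORA64, a guide for 28S ribosomal RNA, was the most abundant SNORA to pass, at -0.38 (SE 0.13, adjusted p = 0.0322 by edgeR). Its estimate moved to -0.22 without the second untreated shControl library, and to -0.08 with the second HNE-treated one also left out.

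SCARNA2 had the smallest adjusted p. It stood at 905 and 986 CPM in untreated shControl, at 968 and 1314 with HNE and at 968 and 874 with H2O2. In shHuR it stood at 937 and 838 CPM untreated, at 867 and 875 with HNE and at 698 and 748 with H2O2. The 2 H2O2-treated shHuR libraries were the lowest of the 12 and the second HNE-treated shControl library the highest, and between them the lines overlapped. The log2 fold change over all treatments was -0.28 (SE 0.07, adjusted p = 0.00477 by edgeR).

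SNORA69, in the gene for ribosomal protein RPL39, was at 3.42 and 7.12 CPM in untreated shControl, at 6.60 and 20.1 with HNE and at 7.39 and 3.56 with H2O2. In shHuR it was at 4.52 and 2.1 CPM untreated, at 2.91 and 2.81 with HNE and at 1.69 and 4.24 with H2O2. The second HNE-treated shControl library stood far above all others, and the lines overlapped in the untreated and H2O2-treated cells. Over all treatments SNORA69 gave -1.28 (SE 0.34, adjusted p = 0.00821 by edgeR), and -0.89 (adjusted p = 0.0113) without that library.

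SNORA33, in the gene for ribosomal protein RPS12, was at 16.7 and 32.1 CPM in untreated shControl, at 34.2 and 54.7 with HNE and at 38.8 and 19.6 with H2O2. In shHuR it was at 26.0 and 15.5 CPM untreated, at 12.3 and 15.7 with HNE and at 11.5 and 22.8 with H2O2. The HNE-treated pairs were fully apart, and the untreated pairs overlapped. The log2 fold change over all treatments was -0.89 (SE 0.25, adjusted p = 0.0117 by edgeR), and -0.71 (adjusted p = 0.0192) without the second HNE-treated shControl library.

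**Figure D3:**
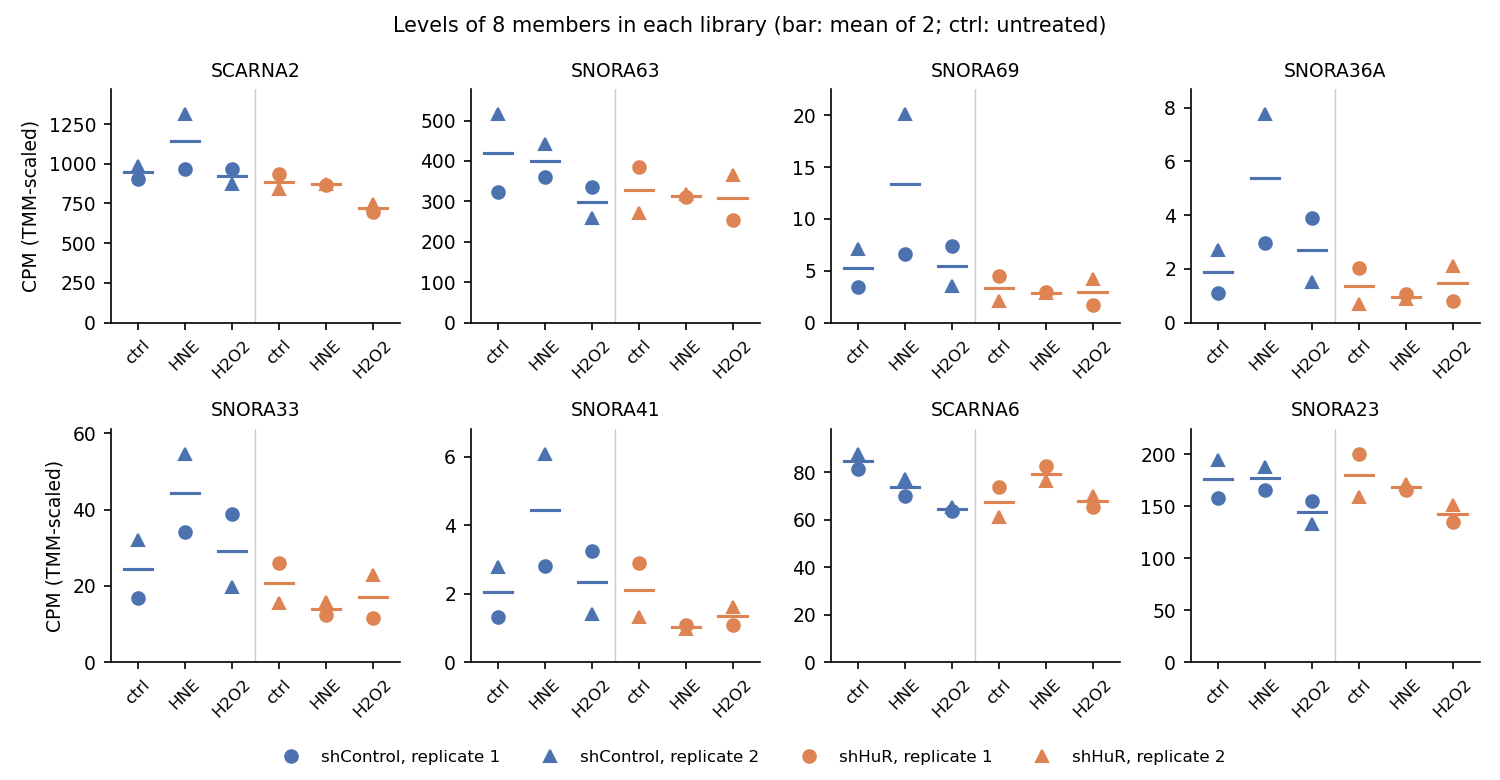
Each panel gives the TMM-scaled CPM of 1 member in the 12 libraries, with circles for replicate 1, triangles for replicate 2 and a line at the mean of 2. The second HNE-treated shControl library is highest for SCARNA2 (1314 CPM), SNORA69 (20.1 CPM), SNORA36A, SNORA33 and SNORA41, but not for SNORA63, SCARNA6 or SNORA23.

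Within a treatment, the line difference gave most calls with HNE. In HNE-treated cells 17 members were lower in shHuR and none was higher, against a background of 8.27% of genes called, 5.04% lower and 3.24% higher. The median log2 fold change was -0.53. The calls were 16 SNORA and SCARNA2. The largest were SNORA36A at -2.46 (SE 0.64, adjusted p = 0.0316 by edgeR), SNORA69 at -2.21 (SE 0.55, adjusted p = 0.0255) and SNORA41, in the gene for elongation factor subunit EEF1B2, at -2.08 (SE 0.52, adjusted p = 0.0257).

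SNORA36A was at 2.97 and 7.77 CPM in HNE-treated shControl and at 1.06 and 0.875 in HNE-treated shHuR. Elsewhere it lay between 0.679 and 3.90 CPM. SNORA41 was at 2.80 and 6.09 CPM in HNE-treated shControl and at 1.1 and 0.984 in HNE-treated shHuR. Both HNE-treated shControl libraries were above both HNE-treated shHuR libraries for these 2 members, and the higher one in each case was the second replicate.

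In untreated cells 1 member of 113 was called, against 7.98% of all genes, and the median was -0.29. That member was SCARNA6, a mixed-type guide RNA, which was at 81.6 and 87.9 CPM in shControl and at 73.8 and 61.3 in shHuR. Its log2 fold change was -0.33 (SE 0.09, adjusted p = 0.0435 by edgeR). With each library left out in turn the call was kept in 5 of 12 fits and lost in 7, with estimates from -0.46 to -0.20. It was lost without either untreated shControl library, the second untreated shHuR library or any treated shHuR library. Unlike most members, SCARNA6 was not high in the second HNE-treated shControl library, where it was at 77.4 CPM. In H2O2-treated cells edgeR called 0 members, against 7.19% of all genes, with 2 at an unadjusted p under 0.05 (23% of all genes) and a median of -0.10. DESeq2 called 1 member there and limma on the FPKM values 0. SCARNA2 had the smallest p, with a log2 fold change of -0.35 (SE 0.11, adjusted p = 0.0755 by edgeR).

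How far 1 library carried these differences was measured by leaving out each in turn. The share of all genes called in these fits was not measured. A change in the number of calls is therefore not a result about the members alone. Without the second HNE-treated shControl library, edgeR called 0 members lower with HNE and the median moved from -0.53 to -0.17. Without the first, it called 52 and the median was -0.85. Leaving out either HNE-treated shHuR library also left 0 calls, with medians of -0.54 and -0.56, so there the size stayed and the calls did not.

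Over all treatments the calls ran from 11, without the first HNE-treated shHuR library, to 47, without the second H2O2-treated shHuR library. Without the second HNE-treated shControl library 17 of the 29 calls remained and the median was -0.18. Without the second untreated shControl library 12 remained and the median was -0.20. With both of those libraries out, a setting chosen after the data were seen, 2 calls remained and the median was -0.05. Those were SCARNA2 at -0.20 (edgeR adjusted p = 0.0130) and SNORA69 at -0.76 (adjusted p = 0.0457).

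All 29 members called over all treatments stayed below 0 in each of the 12 fits with 1 library out, and 9 were called in every one. The 9, named after their values were seen, were SCARNA2, SNORA11, SNORA17, SNORA32, SNORA33, SNORA58, SNORA65, SNORA66 and SNORA69. In untreated cells the sign itself turned on 1 library: the median was 0.10 without the second untreated shControl library and -0.63 without the first. The 3 members called without the first untreated shControl library did not include SCARNA6. In H2O2-treated cells 0 to 2 members were called whichever library was left out.

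**Figure D4:**
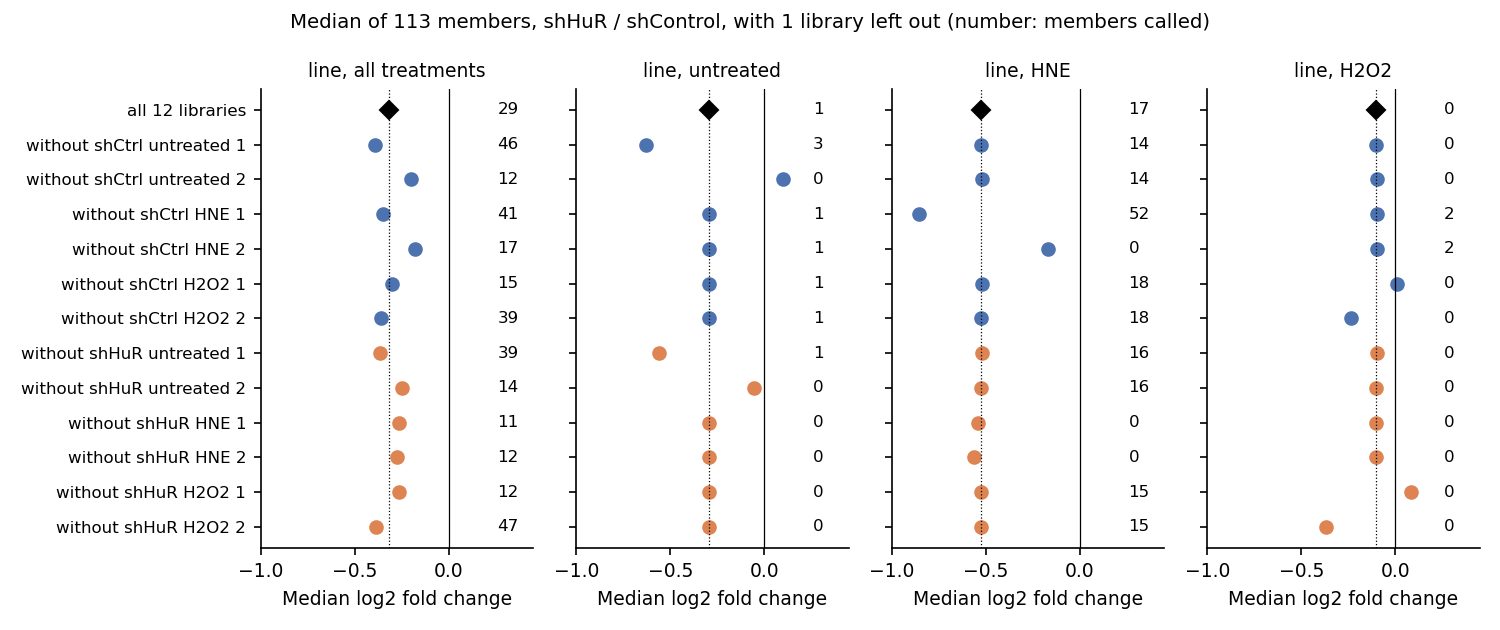
Each panel gives the median log2 fold change of the 113 members between shHuR and shControl, for all 12 libraries (diamond) and with 1 library left out (circles, blue for shControl and orange for shHuR), with the number of members called at the right. The HNE panel runs from -0.85 to -0.17, according to which HNE-treated shControl library is left out, and the untreated panel crosses 0.

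HNE gave no called member in either line or in both together. For both lines together edgeR called 0 members, against 0.247% of all genes, with 3 at an unadjusted p under 0.05 (12.3% of genes) and a median log2 fold change of 0.00. SNORA24, which had the smallest p, gave -0.35 (SE 0.13, adjusted p = 0.291 by edgeR). In shControl 0 members were called, against 0.0187% of genes, with 13 at an unadjusted p under 0.05 (11.7% of genes) and a median of 0.10. In shHuR 0 were called, against 0.075%, with 2 at an unadjusted p under 0.05 (8.95% of genes) and a median of -0.16. DESeq2 and limma called 0 in each. The sign of these medians turned on single libraries. In shControl the median was -0.22 without the second HNE-treated library, -0.15 without the first untreated library and 0.52 without the second. In shHuR it was 0.12 without the first untreated library. Over both lines it ran from -0.19, without the second HNE-treated shControl library, to 0.12, without the first.

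SNORA39 was at 0.919 and 1.65 CPM in untreated shControl and at 2.2 and 6.91 with HNE. Both HNE-treated libraries were above both untreated ones, and the second of them was the highest of all 12. Estimates for HNE in shControl ran from -0.73 to 1.81, with 43 of 113 below 0 and 70 above. The highest was that of SNORA39, 1.81 (SE 0.62, adjusted p = 0.297 by edgeR).

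The difference between lines in the HNE response was tested as an interaction. EdgeR called 0 members, against 0% of genes, with 9 members at an unadjusted p under 0.05 (6.73% of genes) and a median of -0.25. SCARNA6 had the smallest p, with an interaction of 0.43 (SE 0.13, adjusted p = 0.712 by edgeR). Its estimate for HNE was -0.20 in shControl and 0.23 in shHuR. The interaction was below 0 in 82 of 113 estimates, but this sign turned on single libraries. The median was 0.07 without the second HNE-treated shControl library (43 of 113 below 0), 0.02 without the first untreated shControl library and 0.01 without the first untreated shHuR library. Without the second untreated shControl library it was -0.68.

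H2O2 gave 0 called members over both lines, against 0% of genes, while most estimates lay on one side. Of 113, 108 were below 0, with a median log2 fold change of -0.28 against -0.00 for all genes. At an unadjusted p under 0.05 there were 36 members, or 31.9%, against 5.45% of genes. These were 24 SNORA and 12 SCARNA. The SNORD genes gave a median of -0.02, with 26 of 50 below 0, and the 4 tested spliceosomal RNA genes a median of -0.20. At an unadjusted p under 0.05, RPPH1 gave -0.18, RMRP -0.13 and TERC -0.15, each with an adjusted p = 0.900 by edgeR. Differences between these sets and the members were not tested. DESeq2 and limma called 0 members.

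SNORA23, in an intron of IPO7, had the smallest p for H2O2. It was at 158 and 195 CPM in untreated shControl and at 156 and 133 with H2O2. In shHuR it was at 201 and 159 CPM untreated and at 135 and 151 with H2O2. In both lines each H2O2-treated library was below each untreated one. The estimate was -0.31 (SE 0.08, adjusted p = 0.900 by edgeR). The median for H2O2 stayed below 0 with any 1 library left out, from -0.42 without the second H2O2-treated shHuR library to -0.12 without the second untreated shControl library. The H2O2 interaction gave 0 calls, against 0% of genes, with 2 members at an unadjusted p under 0.05 (3.62% of genes). Its median was 0.15 and turned on single libraries, from -0.24 without the second untreated shControl library to 0.45 without the first. SCARNA6 again had the smallest p, at 0.40 (SE 0.13, adjusted p = 0.9999 by edgeR).

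With all 12 libraries, members and their host genes did not move alike between the lines. Of 107 members with an annotated host, 98 had one in the table, 80 genes in all. Over all treatments 14 hosts were higher and 19 lower, with a median of -0.00, where the members with hosts had a median of -0.32. Without the second HNE-treated shControl library the median of all 113 members was -0.18. Without the second untreated shControl library it was -0.20. The median of the hosts in those fits was not measured. The hosts called were 41.25% of the 80, against 29.9% of all genes. Whether called members went with called hosts more often than that share was not tested. Of 25 called members with a tested host, the host was also lower for 7, higher for 2 and not called for 16.

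RPL12, a ribosomal protein gene, was lower (-0.33, edgeR adjusted p = 4.17e-06), as was its SNORA65 (-0.74, adjusted p = 0.0130). DANCR, a noncoding host, was higher (0.32, edgeR adjusted p = 0.000368), whereas its SNORA26 was lower (-0.45, adjusted p = 0.0492). The estimate for SNORA26 leaned on the high shControl libraries. It moved to -0.27 without the second HNE-treated one, and to -0.12 with the second untreated one also left out. DKC1 gave 0.12 (edgeR adjusted p = 0.0522), and of its guides SNORA36A gave -1.29 and SNORA56 -0.57.

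EIF4A2, a translation initiation helicase, fell by 0.59 on the log2 scale in shHuR (edgeR adjusted p = 1.69e-07), from 266 ± 19.5 to 177 ± 14.7 CPM (SD, n = 6). Its 3 members, SNORA63, SNORA81 and SNORA4, gave -0.22 to -0.12 and none was called. SNORA63 was at 324 and 516 CPM in untreated shControl, at 359 and 443 with HNE and at 335 and 260 with H2O2. In shHuR it was at 386 and 272 CPM untreated, at 311 and 318 with HNE and at 253 and 365 with H2O2. The lines overlapped widely, with a log2 fold change of -0.22 (SE 0.12, adjusted p = 0.193 by edgeR).

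Members of 1 host differed from one another as well. TAF1D, which encodes a subunit of the RNA polymerase I selectivity factor, holds 6 members, whose estimates ran from -0.25 for SNORA25 to -1.08 for SNORA32. SNORA32 alone was called, and the host gave -0.07 (edgeR adjusted p = 0.451). In TBRG4, SNORA5A gave -0.10 and SNORA5C -0.87, and in RPSA, a ribosomal protein gene, SNORA6 gave -0.18 and SNORA62 -0.79. Differences between members of a host were not tested.

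**Figure D5:**
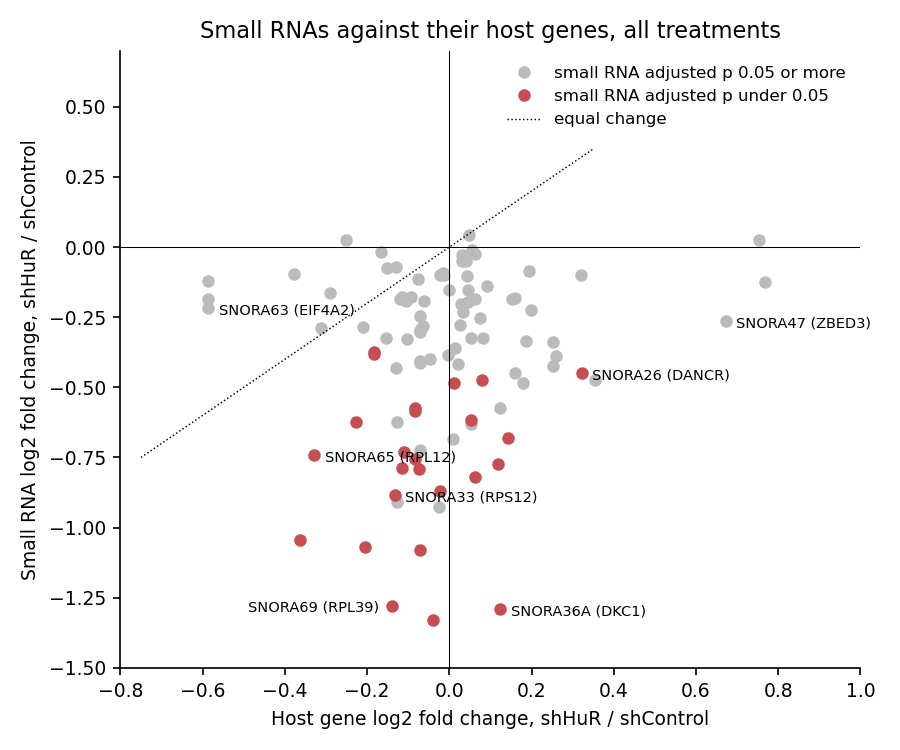
Each point is 1 member, placed by the log2 fold change of its host gene and by its own, shHuR against shControl over all treatments, with red for a member with an adjusted p under 0.05 and a dotted line for equal change. Hosts run from -0.59 (EIF4A2) to 0.77. Most members lie below 0, among them those of EIF4A2 and of DANCR (0.32).

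The genes for proteins that bind and mature these RNAs showed small line differences in RNA level. Over all treatments 2 of 4 H/ACA core protein genes rose in shHuR: GAR1 by 0.27 (SE 0.07, adjusted p = 0.00599 by edgeR) and NOP10 by 0.20 (SE 0.06, adjusted p = 0.0180), whereas NHP2 gave 0.01. GAR1 averaged 23.0 ± 2.28 CPM in shControl and 27.8 ± 2.00 in shHuR (SD, n = 6). None of the 7 assembly factor genes was called, with 2 at an unadjusted p under 0.05 by edgeR. Of 13 tested Cajal body and SMN complex genes, GEMIN4 (0.17), GEMIN6 (0.20) and DDX20 (0.13) were higher and GEMIN8 (-0.34) was lower.

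Of 8 genes for 3′ end maturation and turnover 1 was called, PAPD5, a poly(A) polymerase that adds tails to H/ACA RNA precursors, which was lower by a log2 fold change of -0.33 (SE 0.06, adjusted p = 0.000440 by edgeR). Telomerase RNA (TERC), which carries an H/ACA domain, gave 0.12 (edgeR adjusted p = 0.197), and TERT was not called. Of 4 box C/D protein genes NOP58 was lower (-0.12, edgeR adjusted p = 0.0296). The lists count as descriptions of these libraries, against the 29.9% of all genes called in the same comparison.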

How the data were processed

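Total RNA of 12 HEK293T cultures was sequenced after removal of ribosomal RNA. Per the submitters' processing notes, cutadapt 1.8, Bowtie2 2.2, TopHat2 2.1, Cufflinks 2.2, Cuffnorm and Cuffdiff and the builds GRCh37 and hg19 were used; their order and roles, the annotation and the use of strand in counting are not given in the sources used here. Estimated counts per symbol, as deposited by the authors, were fractional in 701 genes (7 of them members) and were rounded to whole numbers. The deposited FPKM values, scaled by the authors for length and depth, entered the limma alternatives alone, as log2(FPKM + pseudocount). That scale understates the change of genes with FPKM near the pseudocount. Over all treatments the members' median log2 fold change was -0.29 with a pseudocount of 1 and with 0.1.

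Genes were filtered with filterByExpr (minimum count 10), leaving 16005, and scaled with TMM. edgeR 4.0.16 in R 4.3.3 fitted its quasi-likelihood model to all tested genes, with Benjamini-Hochberg adjustment over all of them and a threshold of 0.05. Line differences and interactions within a treatment used 6 group means, the line difference over all treatments used 12 libraries with treatment as a covariate, and HNE or H2O2 over both lines used 8 libraries with line as a covariate. SE is the log2 fold change divided by the square root of F. p-values measure the spread between these libraries, counting error included, and the counts are without molecular identifiers.

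The members and the lists (H/ACA core, assembly, Cajal body, 3′ end, telomerase, box C/D proteins, SNORD, spliceosomal RNAs, hosts) were chosen with earlier results of these data known. Named members were the 8 most abundant, those nearest the CPM minimum, for each comparison the 3 with the largest change among those called or else the one with the smallest p, and the 5 that stood highest in the library with the highest sum; others named are examples chosen after their values were seen. Hosts and sequences came from GENCODE 29 by symbol, host by position on the same strand. Alternatives were DESeq2 1.42.0, size factors by median ratio, library size alone, no filter, a block for the replicate number, a minimum mean of 1 CPM, limma 3.58.1, the compared groups alone, genes with whole counts and each library left out; leaving out both high shControl libraries was added after the data were seen. One member that the rule names is not reported here.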

Additional observations from a re-analysis of the deposited data

Results flagged for a closer look

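Among 21 genes or summed levels examined in each line, 7 of 42 sets of 6 libraries had an extreme value farther from its neighbour than Dixon's 95% limit. Chance gives about 5% of independent sets, but these sets rise and fall over the same libraries, and some members were picked for their level in 1 of them, so the count is a description. In shControl the second HNE-treated library was far above the other 5 for 5 members: SCARNA2 at 1314 CPM (the others 874 to 986), SCARNA15 at 2.58 CPM (0.396 to 1.06), SNORA39 at 6.91 CPM (0.919 to 2.2), SNORA69 at 20.1 CPM (3.42 to 7.39) and SNORA32 at 14.6 CPM (2.65 to 6.41). SCARNA15, SNORA39, SNORA69 and SNORA32 were picked because they stood highest in that library. In shHuR the first untreated library was far above the other 5 for SNORA32, at 3.79 CPM (2.28 to 2.69), and for SNORA41, at 2.89 CPM (0.984 to 1.62).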

How the results depend on the processing

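No called result changed sign. Members called over all treatments, 29 with edgeR, became 19 with DESeq2, 76 with no filter, 8 with limma on log2(FPKM + 1), 10 with a pseudocount of 0.1 and 0 without a filter on FPKM. They ran from 11 to 47 with each library left out, and were 2 without both high shControl libraries, a setting chosen after the data were seen. In untreated cells 1 call became 31 with no filter, 0 in the 3 limma fits and 0 without both libraries, and ran from 0 to 3 with each library left out. With HNE 17 calls became 73 with no filter, 0 in the 3 limma fits, 4 with the compared groups alone and 0 without both libraries, and ran from 0 to 52. With H2O2 0 calls became 1 with DESeq2, 1 with the compared groups alone, 11 with no filter and 2 without both libraries, and ran from 0 to 2. For treatment effects, where edgeR called 0, no filter gave 7 for HNE in both lines, 24 in shControl, 5 in shHuR, 24 for the HNE interaction, 44 for H2O2 in both lines and 2 for the H2O2 interaction. HNE in shControl ran from 0 to 10 with each library left out. Where a count changed, the cause was not tested, and the share of all genes called in that setting was not measured. The limits are the depth, which leaves the 27 members under 5 CPM with few counts, and 2 libraries a group.

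Whether the replicate numbers pair the samples was not tested. Differences between replicates correlated between groups from -0.18 to 0.22 over all genes. With the replicate number as a block 31 members were called over all treatments, 9 with HNE and 0 in untreated cells.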
